A study of Mus musculus with 225 samples.

Results

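Genes that code for Eph receptors and their ephrin ligands were followed in single cells of the mouse forelimb. They were the 9 genes named *Epha3*, *Epha4*, *Epha7*, *Ephb2*, *Ephb3*, *Efna2*, *Efna5*, *Efnb1* and *Efnb2*, out of 23165 genes with a row of read counts. Each name matched 1 row of counts, and all 9 genes were among the 10948 genes of the authors' normalized table. A gene was compared between groups only if it reached 5 reads in 10% or more of the retained cells of either tissue. All 9 members passed this filter, as did 8986 genes in all, which are called the genes tested.

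Eph receptors are receptor tyrosine kinases that bind ephrins on the surface of neighbouring cells, and both partners signal into the cell that carries them. EphA receptors mainly bind ephrin-A proteins, which are held in the membrane by a lipid anchor, and EphB receptors mainly bind ephrin-B proteins, which span the membrane. In the limb bud they are known for sorting cells that differ in origin and for guiding motor axons, and *Epha7* is known as a target of HOX13 proteins, the products of *Hoxa13* and *Hoxd13*, in the distal limb.

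Cells came from forelimbs of embryos at embryonic day 12.5, from the autopod, which forms the digits, and from the zeugopod, which forms the forearm. Both tissues came from pooled littermates on a mixed C57Bl6CBAF1 background that were heterozygous for *Hoxd11::GFP*, a tau-GFP inserted into *Hoxd11* that inactivates that allele, and both groups held only the most strongly GFP-positive cells after sorting, isolated one by one with the Fluidigm C1 system. The authors retained 76 of 96 captured autopod cells (59 in run NXT0072 and 17 in run NXT0143), and all but 6 of the zeugopod cells (58 in run NXT0142 and 65 in run NXT0143). The tissues shared a run only in NXT0143. No embryo was named for any cell, so each tissue was 1 pooled sample, its cells were not replicates, and no p-value or standard error was computed from them.

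Retained cells had 186271 to 9437447 reads on genes, and the 4 tissue and run groups had medians of 3528 to 4283.5 genes with a read. No captured cell had the same counts as another. *Hoxd13* had at least 5 reads in 54 of 59 autopod cells of NXT0072, in 11 of 17 of NXT0143 and in 1 zeugopod cell, so the autopod cells of the smaller group stood apart: their mean *Hoxd13* level was lower by 4.86 on the log2 scale. Of those 17 cells, 8 had at least 5 reads of 2 or more of the autopod markers *Hoxd13*, *Hoxa13* and *Msx1*, against 46 of 59 in NXT0072, and none had 2 of the zeugopod markers *Shox2*, *Meox2* and *Hoxa11*. No retained cell met the criterion for muscle, epithelium, endothelium, macrophage or neural cells. Blood could not be assessed, since only 1 of its 4 markers had a row of counts and 3 were required. The shares of the members and their differences between groups are therefore given by run as well as over both runs, whereas the classes by both HOX13 genes, members per cell, pairs of members and tendon and cell cycle cells are described over both runs.

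A cell was counted as having a gene at 5 reads, and shares carry exact (Clopper-Pearson) 95% intervals. Levels are the authors' normalized values, which are reads divided by a factor from spike-in RNA for each cell and by gene length in kb. Cells with no read sit at a floor of 1 divided by that length. The intervals on shares treat cells as independent draws and cover no spread between embryos or runs. The reads carry no molecular identifiers.

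Positions are those of whole genes on the GRCm38 assembly. The EphA receptor genes are *Epha3* (ENSMUSG00000052504, chr16:63543534-63864175, minus strand), *Epha4* (ENSMUSG00000026235, chr1:77367185-77515088, minus strand) and *Epha7* (ENSMUSG00000028289, chr4:28813131-28967499, plus strand). The EphB receptor genes are *Ephb2* (ENSMUSG00000028664, chr4:136647539-136835988, minus strand) and *Ephb3* (ENSMUSG00000005958, chr16:21204755-21223305, plus strand). The ligand genes are *Efna2* (ENSMUSG00000003070, chr10:80179482-80190010, plus strand), *Efna5* (ENSMUSG00000048915, chr17:62604184-62881317, minus strand), *Efnb1* (ENSMUSG00000031217, chrX:99136130-99148991, plus strand) and *Efnb2* (ENSMUSG00000001300, chr8:8617434-8661242, minus strand). A gene inside *Epha4* on the same strand, *Mir6352*, was counted separately, and its reads could have been split from those of *Epha4*.

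Promoter sequences of the 4 members whose means differed most between the tissues are shown because *Hoxa13* and *Hoxd13* are the reference genes of the comparisons that follow. Each is the 250 bases upstream of a RefSeq start site (GRCm38.p6), 5′ to 3′ on the strand of the gene, with CpG dinucleotides in capitals.
Epha4, chr1:77515089-77515338, minus strand: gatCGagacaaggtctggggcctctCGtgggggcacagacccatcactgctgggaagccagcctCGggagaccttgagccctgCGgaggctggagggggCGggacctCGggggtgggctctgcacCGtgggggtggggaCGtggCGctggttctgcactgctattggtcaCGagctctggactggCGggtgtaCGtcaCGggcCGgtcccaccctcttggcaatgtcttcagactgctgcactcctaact
Epha7, chr4:28812881-28813130, plus strand: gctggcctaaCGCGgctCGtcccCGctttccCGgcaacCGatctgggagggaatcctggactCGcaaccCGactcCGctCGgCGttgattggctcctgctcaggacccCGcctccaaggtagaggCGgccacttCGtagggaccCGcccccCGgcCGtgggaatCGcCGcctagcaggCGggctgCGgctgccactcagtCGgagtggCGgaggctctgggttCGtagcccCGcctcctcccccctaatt
Efna5, chr17:62881318-62881567, minus strand: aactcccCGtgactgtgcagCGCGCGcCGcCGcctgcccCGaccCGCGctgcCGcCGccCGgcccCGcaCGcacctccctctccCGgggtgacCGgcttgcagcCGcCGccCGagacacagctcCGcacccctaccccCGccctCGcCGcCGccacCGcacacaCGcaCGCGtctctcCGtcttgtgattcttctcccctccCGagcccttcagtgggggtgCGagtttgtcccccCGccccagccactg
Efnb2, chr8:8661243-8661492, minus strand: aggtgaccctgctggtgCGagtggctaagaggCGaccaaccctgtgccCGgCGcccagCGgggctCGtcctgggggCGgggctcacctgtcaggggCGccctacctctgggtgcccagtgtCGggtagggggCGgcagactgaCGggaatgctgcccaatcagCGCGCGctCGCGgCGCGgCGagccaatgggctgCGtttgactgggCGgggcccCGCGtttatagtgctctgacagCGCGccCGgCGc
The heptamers TTTACGA and TTTATTG, which share their first 4 letters and resemble sites bound by HOX13 proteins, were searched on both strands of this window. Neither was found for any of the 9 members, and over 32851 RefSeq promoters 4.65% held at least 1 of them (0.478% the former and 4.2% the latter), so a window without a match was the usual case. The 4 promoters held 14 (*Epha4*), 25 (*Epha7*), 32 (*Efna5*) and 27 (*Efnb2*) CpG dinucleotides against a median of 6 over all promoters. As many as in *Efna5* were present in 4.58% of promoters, and as many as in *Epha4* in 29.4%.

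*Epha4*, the receptor that binds ligands of both classes, was found in more autopod cells than any other member. It had at least 5 reads in 38 of 59 autopod cells of NXT0072 (64.4%, 50.9 to 76.4), 11 of 17 of NXT0143 (64.7%, 38.3 to 85.8), 29 of 58 zeugopod cells of NXT0142 (50%, 36.6 to 63.4) and 32 of 65 of NXT0143 (49.2%, 36.6 to 61.9). Its normalized value ranged from the floor of 0.124 to 1472 in autopod cells, with a median of 5.39, and from the same floor to 783 in zeugopod cells, with a median of 0.495. The ranges overlapped throughout, and high values were present in every tissue and run.

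*Epha7*, a receptor of ephrin-A ligands, was found in 25 of 59 (42.4%, 29.6 to 55.9), 8 of 17 (47.1%, 23 to 72.2), 26 of 58 (44.8%, 31.7 to 58.5) and 38 of 65 cells (58.5%, 45.6 to 70.6) of the same groups in that order. The autopod median was 0.151 and the highest value 1182, and the zeugopod median was 2.22 and the highest value 617. The zeugopod cells of NXT0143 were the only group whose median, 21.5, lay far above the floor. *Epha3*, which binds mainly ephrin-A5, was the rarest member in the autopod, with 5 of 59, 4 of 17, 8 of 58 and 11 of 65 cells. A single cell held 77% of the *Epha3* reads of the autopod and another 54.6% of those of the zeugopod.

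The EphB receptors were found in a minority of cells everywhere. *Ephb2* had at least 5 reads in 10 of 59, 4 of 17, 8 of 58 and 16 of 65 cells, and *Ephb3* in 13 of 59, 4 of 17, 14 of 58 and 19 of 65. Over both runs the shares of *Ephb2* were 18.4% (10.5 to 29) in the autopod and 19.5% (12.9 to 27.6) in the zeugopod, and those of *Ephb3* were 22.4% (13.6 to 33.4) and 26.8% (19.2 to 35.6). Their intervals overlapped between the tissues. The highest values of *Ephb3* reached 1888 in an autopod cell of NXT0072, which held 63.9% of its reads in that group, and 1386 in a zeugopod cell.

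**Figure D1:**
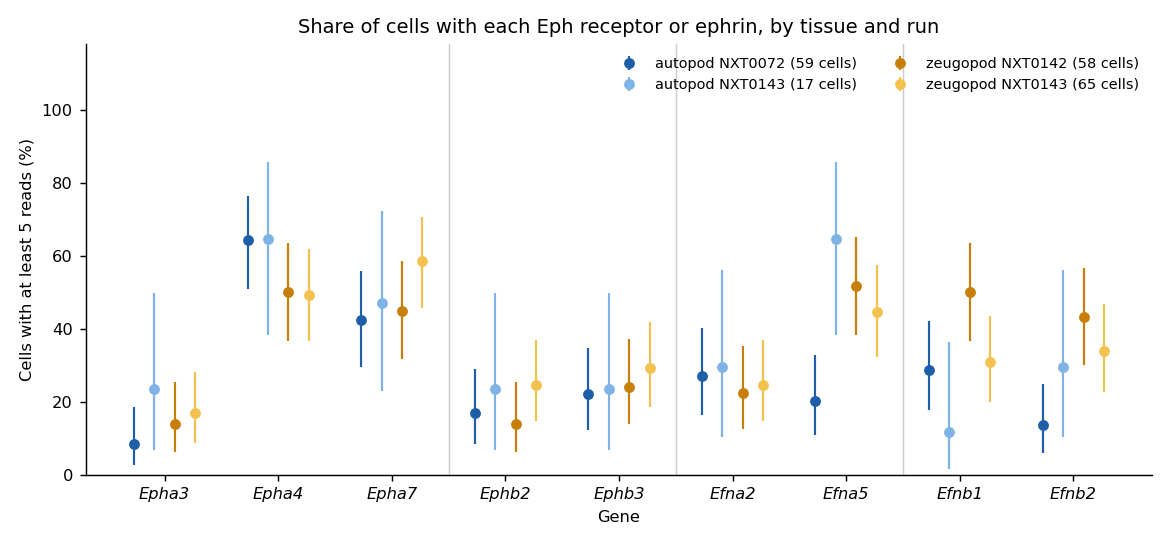
Share of cells with at least 5 reads of each gene (points) in the 2 autopod and 2 zeugopod groups by run, with exact 95% intervals (lines). Epha4 stood at 64.4% and 64.7% in both autopod groups and at 50% and 49.2% in the zeugopod, while Efna5 stood at 20.3% in autopod NXT0072 and at 64.7% in autopod NXT0143.

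*Efna5*, a ligand of several EphA receptors, had the most uneven distribution. It was found in 12 of 59 autopod cells of NXT0072 (20.3%, 11 to 32.8), 11 of 17 of NXT0143 (64.7%, 38.3 to 85.8), 30 of 58 zeugopod cells of NXT0142 (51.7%, 38.2 to 65) and 29 of 65 of NXT0143 (44.6%, 32.3 to 57.5). In zeugopod cells *Efna5* was either high or near the floor: 52 had a normalized value of at least 100, 4 lay from 10 to 100 and 67 lay under 10, limits that were chosen after the values were seen. The 2 zeugopod runs were alike in this, with 27 of 58 and 25 of 65 cells at 100 or more. In the autopod 2 of 59 cells of NXT0072 reached 100 (3.39%, 0.413 to 11.7), the highest at 256, against 8 of 17 of NXT0143 (47.1%, 23 to 72.2), the highest at 9493. That cell held 55.1% of the *Efna5* reads of its group, and without it the summed level of the group was 504 instead of 1042 CPM (reads of the gene scaled to the reads on all genes), against 13.6 CPM in autopod NXT0072, which was 5.52 CPM without the cell that held 60.3% of its reads.

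*Efna2*, the other ephrin-A ligand followed, was found in 16 of 59, 5 of 17, 13 of 58 and 16 of 65 cells. Its shares over both runs were 27.6% (18 to 39.1) in the autopod and 23.6% (16.4 to 32.1) in the zeugopod, and the intervals overlapped. Its highest values were 790 in the autopod and 484 in the zeugopod.

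The ephrin-B ligands were found in more zeugopod than autopod cells. *Efnb2*, the transmembrane ligand also known from arterial endothelium, had at least 5 reads in 8 of 59 (13.6%, 6.04 to 25), 5 of 17 (29.4%, 10.3 to 56), 25 of 58 (43.1%, 30.2 to 56.8) and 22 of 65 cells (33.8%, 22.6 to 46.6). A value of at least 100 was reached by 4 of 76 autopod cells and 34 zeugopod cells (27.6%). *Efnb1*, the X-linked ligand of EphB receptors, was found in 17 of 59 (28.8%, 17.8 to 42.1), 2 of 17 (11.8%, 1.46 to 36.4), 29 of 58 (50%, 36.6 to 63.4) and 20 of 65 cells (30.8%, 19.9 to 43.4). Its highest values were 306 in the autopod and 1329 in the zeugopod. In both tissues the endothelial markers *Pecam1*, *Cdh5*, *Kdr* and *Emcn* summed to at most 19.2 CPM in any cell.

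**Figure D2:**
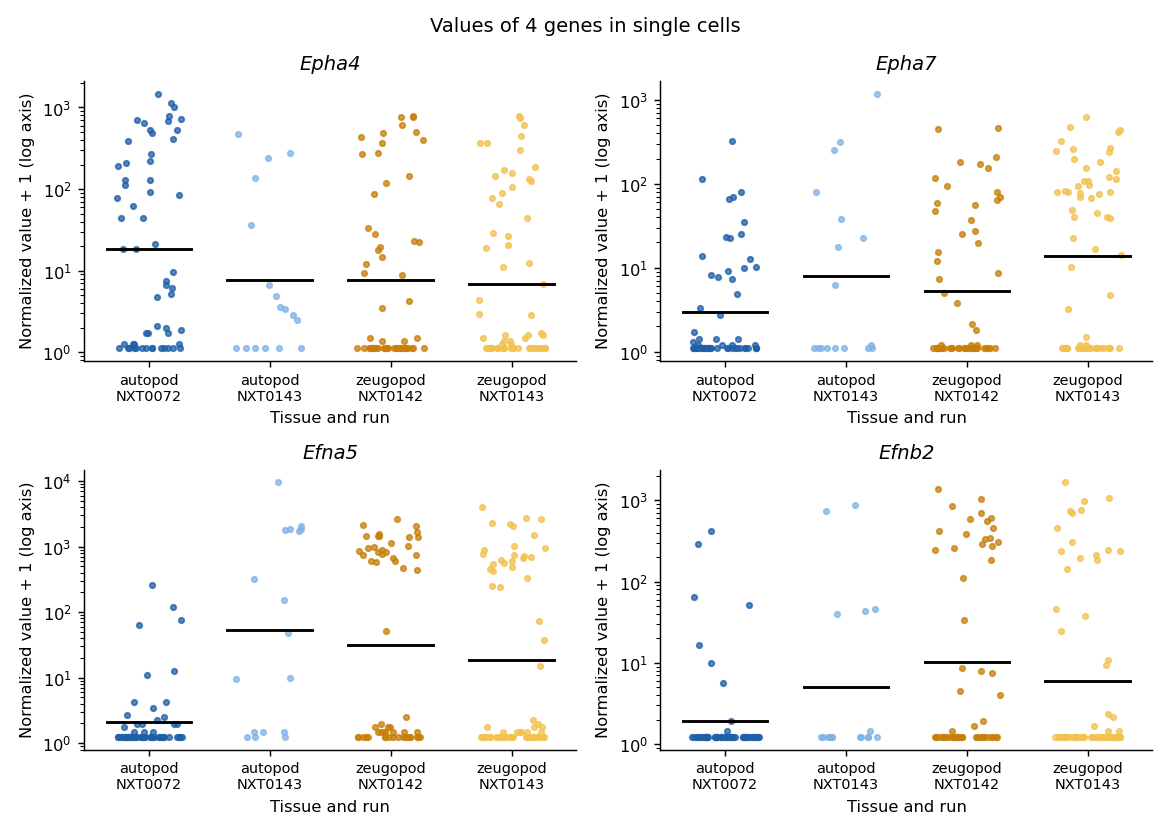
Normalized values plus 1 (log axis) of Epha4, Epha7, Efna5 and Efnb2 in each cell (points) by tissue and run, with black lines at 2 to the power of the mean of log2(normalized value + 1). Efna5 in zeugopod cells formed a high band of 27 of 58 and 25 of 65 cells at 100 or more above a band near the floor, whereas only 2 of 59 autopod cells of NXT0072 were that high.

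Ordered by the mean of log2(normalized value + 1), a level per length, the autopod members were *Epha4* (3.92), *Efna5* (2.12), *Efna2* (1.94), *Epha7* (1.88), *Efnb1* (1.65), *Efnb2* (1.24), *Ephb3* (1.04), *Epha3* (0.86) and *Ephb2* (0.77). In the zeugopod the order of these mean levels was *Efna5* (4.59), *Epha7* (3.15), *Efnb2* (2.95), *Epha4* (2.85), *Efnb1* (2.36), *Efna2* (1.72), *Ephb3* (1.43), *Epha3* (0.93) and *Ephb2* (0.66). The last 3 places were the same in both tissues. When members were ordered by share of cells, the intervals of all neighbouring members overlapped in either tissue. The mean level of *Efna2* is raised by its short length of 2.14 kb, since its floor alone gives 0.55 on that scale.

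The tissues were compared by the difference of mean log2(normalized value + 1), autopod minus zeugopod, and a gene was called at a difference of at least 1 in size. Over all cells *Epha4* was higher in the autopod (1.07), while *Efna5* (−2.47), *Efnb2* (−1.71) and *Epha7* (−1.27) were lower. Of the 9 members 1 was called higher, where 3.45% of the 8986 genes tested were, and 3 were called lower, where 7.62% were. The median difference was −0.39 over the members and −0.07 over all genes tested. The other 5 differences were −0.72 for *Efnb1*, −0.39 for *Ephb3*, 0.22 for *Efna2*, 0.11 for *Ephb2* and −0.07 for *Epha3*. On log2(CPM + 1) the 4 called members differed by 1.14 (*Epha4*), −2.69 (*Efna5*), −1.93 (*Efnb2*) and −1.60 (*Epha7*).

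Only part of this pattern was present within NXT0143, the run with both tissues. There *Efna5* had the opposite sign, 1.53 higher in the autopod, and no other member was called (higher 12.9% and lower 6.29% of genes tested). The differences within that run were −0.84 for *Efnb1*, −0.82 for *Epha7*, −0.27 for *Efnb2* and 0.15 for *Epha4*. When the autopod group of NXT0072 was set against the zeugopod group of NXT0142, *Epha4* was called higher by 1.27 (background 3.98%), and *Efna5* (−3.92), *Efnb2* (−2.42) and *Efnb1* (−1.07) were called lower (background 15%), with *Epha7* at −0.86. *Epha4*, *Efna2* and *Ephb2* were thus higher and *Epha7*, *Efnb1*, *Efnb2* and *Ephb3* lower in the autopod in both run comparisons. Within NXT0143 and across runs, *Efna2* differed by 0.55 and 0.095, *Ephb2* by 0.13 and 0.21, and *Ephb3* by −0.42 and −0.29. The median gene tested differed by 0.096 and −0.20. Of these members only *Efnb1*, *Efnb2* and *Epha4* passed the limit, and in the comparison across runs alone. Tissue and run cannot be told apart in that comparison.

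**Figure D3:**
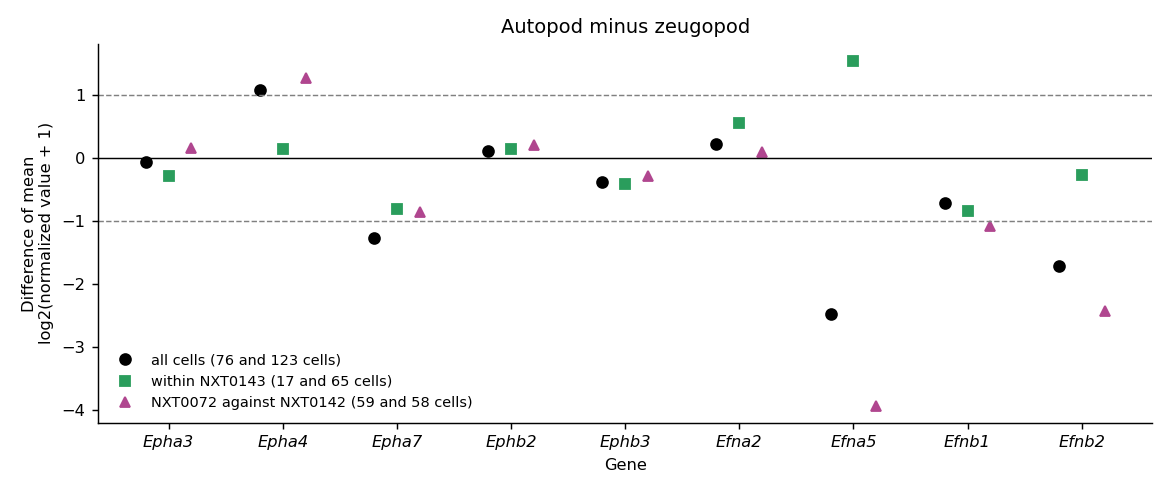
Difference of mean log2(normalized value + 1), autopod minus zeugopod, for each gene over all cells (circles), within NXT0143 (squares) and for NXT0072 against NXT0142 (triangles), with dashed lines at a difference of 1 in either direction. Efna5 lay at −2.47 over all cells, at 1.53 within NXT0143 and at −3.92 across runs, and Epha4 at 1.07, 0.15 and 1.27.

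Within a tissue, members also differed between runs. Autopod cells of NXT0072 minus those of NXT0143 differed by 1.29 for *Epha4* (background 8.16% of genes), and by −4.69 for *Efna5*, −1.43 for *Epha7* and −1.39 for *Efnb2* (background 15.4%). The gap of *Efna5* between autopod runs was wider than its gap between tissues. Leaving out the cell with the most *Efna5* reads left the NXT0143 autopod mean at 5.29 instead of 5.76, against 1.07 in NXT0072. Between zeugopod runs, NXT0142 minus NXT0143, *Efnb1* was higher by 1.0 (background 9.13%) and *Epha7* was lower (−1.38, background 0.768%).

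The other 13 genes of the family were mostly rarer. Of these, 6 passed the filter, *Epha5*, *Epha6*, *Ephb1*, *Ephb4*, *Efna4* and *Efnb3*, and none was called between the tissues over all cells. Their median difference was −0.11. Within NXT0143 *Ephb4* was called lower (−1.20, background 6.29%), and for NXT0072 against NXT0142 *Efna4* was called lower (−1.01, background 15.0%). *Ephb4*, the receptor best known as the venous partner of ephrin-B2, was found in 31.6% of autopod and 32.5% of zeugopod cells, and *Epha5* in 9.21% and 20.3%. *Epha2* had at least 5 reads in 3 of 76 autopod cells and in no zeugopod cell, where the exact interval reaches 2.95%, although 7 zeugopod cells had at least 1 read.

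Of 34 genes that act in Eph and ephrin signalling, 29 passed the filter, of which 2 were called higher and 2 lower in the autopod over all cells, beside 3.45% and 7.62% of all genes tested, with a median difference of 0.08. The 4 were *Crk*, an adaptor (1.34), *Rac1*, a small GTPase of the actin cytoskeleton (1.27), *Cfl1*, the actin-severing cofilin (−1.16), and *Kalrn*, a guanine nucleotide exchange factor (−1.07). Within NXT0143 these differences were 0.12, 0.08, 0.12 and −0.69, and none of the 4 passed the limit. Other genes of the list were called there, *Gja1* (1.64), *Pick1* (1.30) and *Sdcbp* (1.02) higher (background 12.9%) and *Rasa1* (−1.33) lower (background 6.29%). They are named after their values were seen.

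*Hoxd13* was present in 65 of the 76 autopod cells and absent in 11 (54 and 5 in NXT0072, 11 and 6 in NXT0143). Cells with *Hoxd13* had higher *Epha4* (difference 2.12) and *Efna2* (1.06) and lower *Efnb2* (−1.72) and *Efna5* (−1.63) over both runs. These were 2 members called higher, where 26.9% of genes were, and 2 called lower, where 3.42% were. The median difference was 0.30 over the members and 0.52 over all genes tested. Cells with *Hoxd13* had a median of 3805 genes detected and those without 2735, and the part of this difference in the results was not tested.

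By run, the relation of *Epha4* to *Hoxd13* was not the same. In NXT0072 *Epha4* had a median normalized value of 19 in the 54 cells with *Hoxd13* (0.124 to 1472), and of the 5 cells without it 1 had *Epha4*, at a value of 8.55, and the other 4 had 1, 1, 0 and 0 reads. The difference there was 3.71 (higher background 40.1%). In NXT0143 the median was 1.49 in the 11 cells with *Hoxd13* (0.124 to 475), and the 6 cells without it had 1463, 213, 31, 20, 19 and 0 reads of *Epha4*, for a difference of −0.41. In that run *Ephb2*, *Efna2* and *Efnb1* were the members called higher (background 31.8%). Of the 6 cells, 5 therefore had *Epha4* at 5 reads or more, as had 6 of the 11 with *Hoxd13*.

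*Efna2*, *Ephb2* and *Ephb3* were higher on average in cells with *Hoxd13* in both runs, by 1.43, 0.68 and 0.88 in NXT0072 and by 1.22, 1.23 and 0.88 in NXT0143. So was *Epha7*, by 0.73 in NXT0072 and 0.75 in NXT0143, although its pooled difference was 0.13. The median gene tested was also higher with *Hoxd13*, by 0.78 in NXT0072 and 0.46 in NXT0143. Genes detected had medians of 3684 with *Hoxd13* and 2460 without in NXT0072, and of 4504 and 3490 in NXT0143. The part of this in the differences was not tested. No cell without *Hoxd13* had 5 reads of *Ephb2* (0 of 11, which the exact interval bounds at 28.5%), against 14 of 65 with it (21.5%, 12.3 to 33.5), and 1 of the 11 had *Efna2* and 1 had *Ephb3*. *Efnb2* was lower on average in cells with *Hoxd13* in both runs (−1.03 and −1.69, background 3.89% and 10.9%), a difference carried by 3 of the 11 cells without it, whose *Efnb2* reads were 6269, 2950 and 2104 while the other 8 had 0. With *Hoxd13* counted as present from 1 read, the pooled difference of *Efnb2* was −0.40 and no longer passed the limit. The pooled difference of *Efna5* was not present within the runs, where it was 0.64 and −0.43. Of the 6 NXT0143 cells without *Hoxd13*, 3 had 5289, 6630 and 24494 reads of *Efna5* and 3 had 0, 1 and 2.

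**Figure D4:**
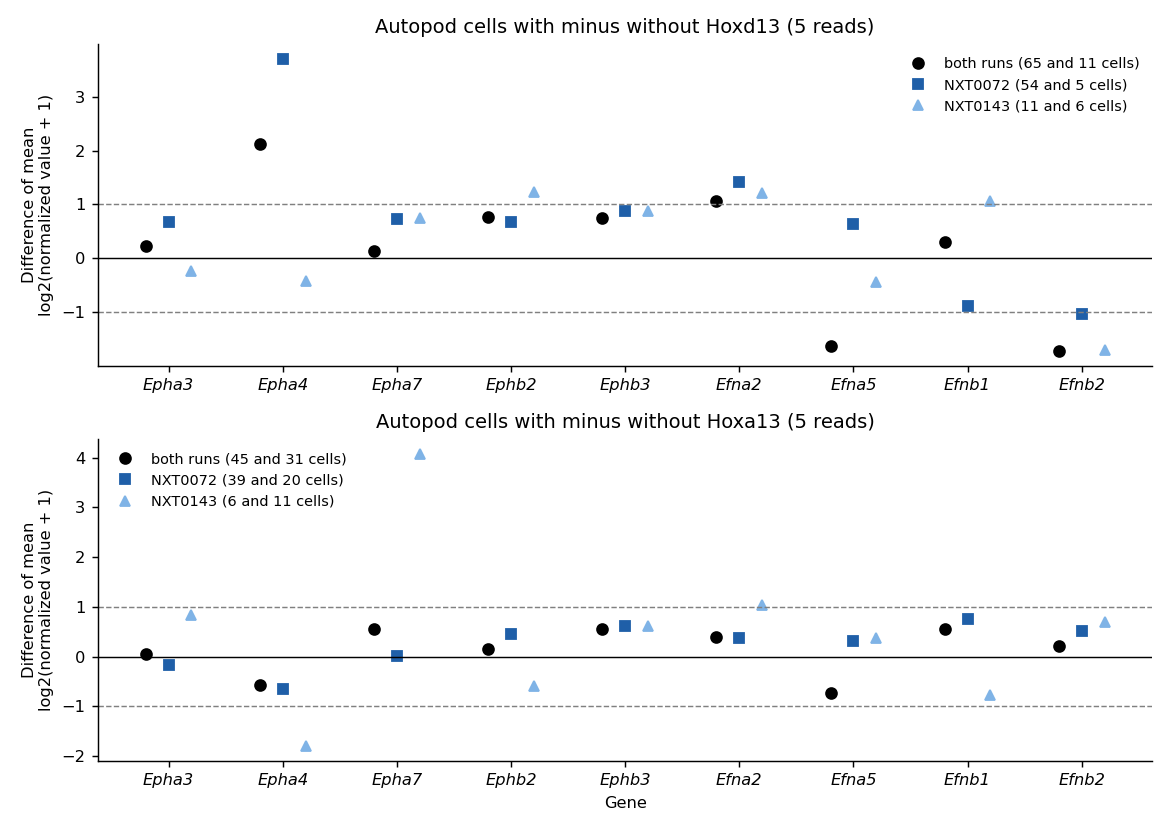
Difference of mean log2(normalized value + 1) for each gene between autopod cells with and without at least 5 reads of Hoxd13 (upper panel) or Hoxa13 (lower panel), over both runs (circles), in NXT0072 (squares) and in NXT0143 (triangles), with dashed lines at a difference of 1 in either direction. Epha4 was 3.71 higher with Hoxd13 in NXT0072 and −0.41 in NXT0143, and Epha7 was 4.08 higher with Hoxa13 in NXT0143 and 0.01 in NXT0072.

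*Hoxa13* was present in 45 autopod cells and absent in 31, and no member was called over both runs (higher 10.1% and lower 2.05% of genes tested). The differences ran from −0.73 for *Efna5* to 0.55 for *Epha7*. *Efna5* was 0.31 and 0.37 higher with *Hoxa13* within the runs, so its pooled sign was not that of either run. *Epha4* was lower with *Hoxa13* in both runs, by −0.66 and −1.80, and had at least 5 reads in 25 of 45 cells with *Hoxa13* (55.6%, 40 to 70.4) and 24 of 31 without (77.4%, 58.9 to 90.4). The pooled difference of *Epha4* was −0.57, but −0.05 with *Hoxa13* counted as present from 1 read. Within NXT0143, *Epha7* was higher by 4.08 and *Efna2* by 1.03 (background 29.1%), and *Epha4* was the member called lower (background 12.7%). Genes detected in NXT0143 had a median of 4251 with *Hoxa13* and 3566 without. The part of this in the differences was not tested. In that run 5 of 6 cells with *Hoxa13* had *Epha7* against 3 of 11 without, while in NXT0072 the shares were 18 of 39 and 7 of 20 and the difference was 0.01. No member was called in NXT0072 (higher 12.5% and lower 3.26% of genes tested).

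Split by both genes, 40 autopod cells had *Hoxa13* and *Hoxd13*, 25 *Hoxd13* only, 5 *Hoxa13* only and 6 neither. *Epha4* was found in 23 of 40, 20 of 25, 2 of 5 and 4 of 6 of these, and *Epha7* in 19 of 40, 9 of 25, 4 of 5 and 1 of 6. *Epha4* was thus most frequent in cells with *Hoxd13* only (80%, 59.3 to 93.2), although this interval overlapped that of cells with both genes (57.5%, 40.9 to 73). *Epha7* had the higher shares in the classes with *Hoxa13*, again with overlapping intervals. *Epha3* did not follow either gene, with 4 of 40, 3 of 25, 1 of 5 and 1 of 6 cells.

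Spearman rank correlations over cells are given as a description, and for some members their sign was not that of the difference. With *Hoxd13*, *Epha4* had a rho of 0.33 and *Efna2* 0.32 over 76 autopod cells (0.30 and 0.39 over 59 cells of NXT0072, 0.08 and 0.29 over 17 of NXT0143), when the median gene tested had 0.16. Given the number of genes detected per cell, the partial values were 0.20 and 0.15 over 76 cells, and that of *Epha4* was 0.01 in NXT0072. *Efnb2* (−0.13) and *Efna5* (−0.12) had the lowest rho with *Hoxd13* over both runs, although *Efna5* had 0.14 and 0.16 within them. With *Hoxa13*, the highest were 0.21 for *Efnb1* and 0.19 for *Efna2*, and *Epha4* had 0.00 (0.06 in NXT0072, where its difference was −0.66), when the median gene had 0.08. On CPM the rho of *Epha4* with *Hoxd13* was 0.10 over all autopod cells. The cells share their pooled sample, and both Hox genes and members correlated with genes detected (0.44 for *Hoxd13*, 0.46 for *Efna2* and 0.36 for *Epha4*).

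In the zeugopod 4 cells had a HOX13 gene at 5 reads. The only one with *Hoxd13*, a cell of NXT0142 with 142 reads of it, had 7 of the 9 members, all but *Ephb2* and *Efna2*. The 3 with *Hoxa13* had 1039, 8 and 6 reads of it and 3, 1 and 4 members.

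Most cells had several members. At least 1 was found in 68 of 76 autopod cells (89.5%, 80.3 to 95.3) and in all but 5 zeugopod cells (95.9%, 90.8 to 98.7), and at least 2 in 73.7% and 88.6%. The mean number per cell was 2.61 in the autopod and 3.13 in the zeugopod, and the most were 6 and 7. The number of members followed the number of genes detected (Spearman rho 0.58 over 76 cells and 0.44 over the zeugopod cells). With each cell thinned to 500000 reads and counted at 1 read, at least 2 members were found in 80.6% of autopod and 89.9% of zeugopod cells, and 4 shallower cells of each tissue were left out.

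Receptor and ligand of one class were found in the same cell about as often as the product of their shares gives. At least 1 of *Epha3*, *Epha4* and *Epha7* together with *Efna2* or *Efna5* was found in 33 of 76 autopod cells (43.4%, 32.1 to 55.3) and 52 zeugopod cells (42.3%, 33.4 to 51.5), where the product of the 2 shares gives 29.7 and 54.6 cells. Cells with an ephrin-A ligand but none of these receptors made up 5.26% (1.45 to 12.9) of the autopod and 17.1% (10.9 to 24.9) of the zeugopod. Other EphA receptors, among them *Epha5*, were not counted for class A, so these cells may hold such a receptor. For class B, receptor and ligand were together in 11 autopod cells (14.5%, 7.45 to 24.4) and 30 zeugopod cells (24.4%, 17.1 to 33), against products of 10.3 and 29.5. Cells with *Efnb1* or *Efnb2* but neither *Ephb2* nor *Ephb3* were 23.7% and 35.8%, and cells with none of these genes were 40.8% and 24.4%. Other receptors of ephrin-B, among them *Epha4* and *Ephb4*, were not counted for class B, so these cells may hold such a receptor.

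**Figure D5:**
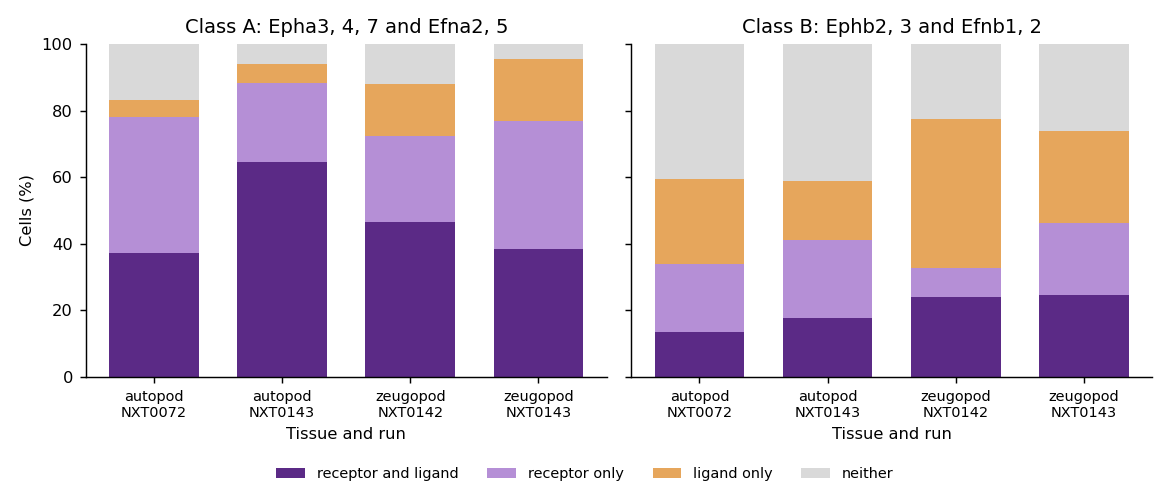
Share of cells (stacked bars) with receptor and ligand, receptor only, ligand only or neither, at 5 reads, by tissue and run, for class A (Epha3, Epha4, Epha7 with Efna2, Efna5) and class B (Ephb2, Ephb3 with Efnb1, Efnb2). Receptor and ligand of class A were together in 37.3% of autopod cells of NXT0072 and 64.7% of those of NXT0143. Efnb1 or Efnb2 without Ephb2 or Ephb3 was most frequent, at 44.8%, in zeugopod cells of NXT0142.

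Over the 36 pairs of members, the number of cells with both was compared with the product of their shares within each tissue and run. The median ratio was 1.10 (0.54 to 1.77), and that over all pairs of genes tested was 1.07. The highest was that of *Ephb2* with *Efna2*, a receptor and a ligand of different classes, at 1.77 (17 cells against 9.62) and 1.64 after thinning. The pair *Epha3* and *Epha4* followed with 1.45 (22 cells against 15.2), and *Epha3* with *Efnb2* had 1.44 (13 against 9.03). The lowest were *Epha3* with *Ephb2* at 0.54 (3 cells against 5.60) and *Ephb2* with *Efna5* at 0.75 (12 against 15.9). *Epha4* and *Efna5* were together in 38 cells against 44.1, a ratio of 0.86.

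Members were also compared between cells with and without markers of limb cell states. Interdigit markers (2 of *Aldh1a2*, *Msx2* and *Bmp7*) were found in 17 autopod cells, of which 11 had *Efna5* (64.7%, 38.3 to 85.8), against 12 of the other 59 (20.3%, 11 to 32.8). This was present in each run, with 5 of 11 against 7 of 48 in NXT0072 and 6 of 6 against 5 of 11 in NXT0143. Apart from *Epha3* (2 of 17 against 7 of 59), every other member also had a higher share in these cells over both runs. Among them were *Efna2* (8 of 17 against 13 of 59), *Efnb1* (7 of 17 against 12 of 59) and *Ephb2* (5 of 17 against 9 of 59). The cells with interdigit markers had a median of 4504 genes detected against 3414 in the others, and the part of this in the shares was not tested.

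Chondrogenic markers (3 of *Sox9*, *Col2a1*, *Acan*, *Col9a1* and *Matn1*) were found in 38 zeugopod cells. Of these 11 had *Efna5* (28.9%, 15.4 to 45.9) and 8 had *Efnb2* (21.1%, 9.55 to 37.3), against 48 (56.5%, 45.3 to 67.2) and 39 (45.9%, 35 to 57) of the other 85. Both shares were lower in each run: 6 of 19 against 24 of 39 for *Efna5* and 4 of 19 against 21 of 39 for *Efnb2* in NXT0142, and 5 of 19 against 24 of 46 and 4 of 19 against 18 of 46 in NXT0143. Over both runs every other member but *Epha4* (52.6% against 48.2%) also had a lower share in chondrogenic zeugopod cells. *Ephb3*, for example, was at 18.4% against 30.6%, and *Efnb1* at 34.2% against 42.4%. The chondrogenic zeugopod cells had a median of 3869.5 genes detected and the others 4051, and the part of this in the shares was not tested. In the autopod the 35 chondrogenic cells had *Efna5* in 31.4% and *Efnb2* in 17.1%, against 29.3% and 17.1% of the other 41.

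Tendon markers (2 of *Scx*, *Tnmd* and *Tnc*) were found in 17 zeugopod and no autopod cells. Of the 17, 3 had *Efnb1* (17.6%, 3.8 to 43.4) against 46 of the others (43.4%, 33.8 to 53.4). Every other member had a higher share in the cells with tendon markers. *Efna5* was found in 11 of 17 (64.7%, 38.3 to 85.8) against 48 of the others (45.3%, 35.6 to 55.2), and *Efna2* in 41.2% against 20.8%. Cell cycle markers (3 of *Mki67*, *Top2a*, *Ccnb1* and *Cdk1*) were found in 18 autopod and 23 zeugopod cells. *Efnb1* was present in 9 of 18 cycling autopod cells (50%, 26 to 74) against 10 of 58 others (17.2%, 8.59 to 29.4), and *Efna5* in 15 of 23 zeugopod cells (65.2%, 42.7 to 83.6) against 44 of 100 (44%, 34.1 to 54.3). All other members but *Epha3* in the autopod and *Epha7* in the zeugopod also had higher shares in cycling cells. Cells with cell cycle markers had more genes detected (a median of 4170.5 against 3402 in the autopod and 5053 against 3900.5 in the zeugopod), and the part of this was not tested. Limb mesenchyme markers (2 of *Prrx1*, *Prrx2* and *Twist1*) were found in 52.6% of autopod and 19.5% of zeugopod cells. The shares differed by run: 62.7% in NXT0072 and 17.6% in NXT0143 for the autopod, and 29.3% in NXT0142 and 10.8% in NXT0143 for the zeugopod.

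The genes whose values were most like those of a member over cells were sought for the 7 members with at least 5 reads in 25% of the cells of a tissue, by Spearman rho within each tissue and run weighted by cells (199 cells, 4897 genes). For *Efnb2* the closest was *Spry4*, an inhibitor of receptor tyrosine kinase signalling, with a mean rho of 0.32, followed by *Ankmy2* (0.30) and *Col3a1* (0.30). For *Epha4* they were *Ndufa12* (0.34), *Atp5k* (0.32) and *G2e3* (0.32), for *Epha7* *Mrpl48* (0.31), *Srsf7* (0.30) and *Calr* (0.30), and for *Ephb3* *Yeats2* (0.35), *Dnajc7* (0.34) and *Txndc12* (0.33). For *Efna2* they were *Gtf2f1* (0.38), *Dnajc9* (0.37) and *Actb* (0.37), for *Efna5* *Zfp57* (0.31), *Crk* (0.31) and *Zfp652* (0.29), and for *Efnb1* *Rn18s-rs5* (0.39), *Ccnc* (0.35) and *Oxct1* (0.35). All were weak, with the median gene at 0.07 to 0.12, and no member was among the 3 closest of another.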

How the data were processed

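Single-cell cDNA (SMARTer on a Fluidigm C1, polyadenylated RNA, ERCC spike-ins) was sequenced for 225 cells. The authors aligned the reads to mm10 (GRCm38) using local bowtie2 alignment, kept unique hits and deposited raw counts per ENSEMBL gene. They also deposited a normalized signal for 199 cells, made with scran from spike-in size factors centred per batch and from gene length. Its values were all whole multiples of a floor per gene (tolerance 1e-06), and 7.69% of pairs of a gene and a cell with a read sat at that floor. The 92 spike-in rows were not used, no column was left unmapped, and no doublet caller was run. Differences were taken on log2(normalized value + 1), with CPM, pseudocounts of 0.1 and 10, other criteria for a cell, thinning (seed 42) and single runs as alternatives. The code was tested on simulated data. Genes named were all members, *Hoxa13*, *Hoxd13*, the rest of the family, the 4 signalling genes of largest difference and the 3 genes most like each frequent member. Members and lists were chosen with earlier results of these data known. Python 3.11.15, pandas 2.3.3 and scipy 1.17.1 were used.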

Additional observations from a re-analysis of the deposited data

Results flagged for a closer look

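The 26 captured cells outside the normalized table were not used in any comparison, and a few of them held reads of the members. In the 20 autopod cells these reads numbered 83 in all, with *Epha7* at 5 reads in 2 cells and *Epha4* in 1. In the 6 zeugopod cells they numbered 38, with *Efna2* and *Efnb1* in 1 cell each. The 26 cells had 17 to 2926028 reads on genes, with a median of 4951.5 in the autopod.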

How the results depend on the processing

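No paired analysis was possible because the numbers shared by autopod and zeugopod labels only name cells, and no result comes from a test. Reads per cell limit what can be seen: a cell without 5 reads of a member is not shown to lack its RNA, and the 17 autopod cells of NXT0143 give wide intervals. Of 72 alternative values, 56 stayed close to the main value, which meant within 1.5 times it for counts and within its interval for shares of cells. For calls this compares how many members were called, not which. Against 1 member higher and 3 lower in the autopod, a pseudocount of 10 gave 0 higher and 2 lower, with *Epha7* at −0.77. NXT0143 alone gave 0 lower, and its 1 member higher was *Efna5* and not *Epha4*. Against 2 members higher and 2 lower with *Hoxd13*, members higher numbered 4 with a pseudocount of 0.1, 1 with a pseudocount of 10, 1 after thinning to 500000 reads and 1 with *Hoxd13* on at a normalized value of at least 5. Members lower numbered 1 in NXT0072 alone, 1 in NXT0143 alone and 1 with *Hoxd13* on at 1 read. Against 0 and 0 with *Hoxa13*, 1 member (*Epha4*) was lower on CPM and 1 after thinning, and NXT0143 alone gave 2 higher and 1 lower. The pooled difference of *Epha4* with *Hoxa13* shrank from −0.57 to −0.15 with a pseudocount of 10 and to −0.05 with *Hoxa13* on at 1 read. Of 18 rank correlations 12 were above 0, and 7 on CPM. Counted at 1 read, at least 2 members were found in 90.8% of autopod and 94.3% of zeugopod cells. Among differences past the limit, those that turned sign were *Efna5* between tissues in NXT0143 alone (1.53), *Efna5* with *Hoxd13* in NXT0072 alone (0.64) and *Epha4* with *Hoxd13* in NXT0143 alone (−0.41). Smaller differences turned sign too. With *Hoxd13*, that of *Efnb1* went from 0.30 to −0.32 on CPM, −0.49 after thinning and −0.88 in NXT0072 alone, that of *Epha7* from 0.13 to −0.31 on CPM, and that of *Epha3* from 0.23 to −0.24 in NXT0143 alone. With *Hoxa13*, *Efna5* went from −0.73 to 0.31 and 0.37 in the single runs and *Efnb1* from 0.55 to −0.78 in NXT0143 alone. Differences of *Epha3* and *Ephb2* that were under 0.2 in size also did so, between tissues and with *Hoxa13*. The call of *Efna2* with *Hoxd13* was lost with a pseudocount of 10, on CPM, after thinning and with *Hoxd13* on at a normalized value of at least 5, and that of *Efnb2* with *Hoxd13* on at 1 read. The cause was not tested. Between the tissues, *Efna5* and *Efnb2* were lower under every pseudocount, on CPM and after thinning.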
